A study of Rattus norvegicus with 61 samples.

Results

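Among the liver transcripts of rats given a toxic dose of acetaminophen (APAP) or methylene dianiline (MDA), 150 fell furthest after APAP while staying near the vehicle level after MDA. These 150 transcripts were chosen from 13482 whose mean over 15 livers was 1 CPM or more, out of 31196 transcripts in the deposited table. CPM, here the unit of all levels, is the value of a transcript divided by the total of its sample and multiplied by 1000000. For each transcript, the log2 ratio of the treated mean to the vehicle mean was taken with 1 CPM added to both, and the median ratio of the 13482 transcripts was subtracted. The centred ratio is called A for APAP and M for MDA. The members are the 150 lowest A among transcripts with A at or below -0.5 and M between -0.5 and 0.5, and 1579 transcripts met these limits before the cap of 150. The liver values therefore chose the members, and the liver values below describe them without testing them.

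APAP is an analgesic that hepatocytes clear mainly by conjugation. At high doses, cytochrome P450 enzymes turn part of it into a reactive quinone imine, which depletes glutathione and injures hepatocytes around the central vein. MDA is an aromatic amine known for injury of the bile duct epithelium as well as of hepatocytes. Hepatocytes supply most of the RNA of a liver, and much of their transcription serves secreted proteins and the metabolism of nutrients and foreign compounds.

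The livers came from male wild-type Sprague-Dawley rats, which were 6 weeks old and had fasted overnight. Vehicle rats received 0.5% methylcellulose, and the other groups received APAP at 3 g/kg or MDA at 300 mg/kg, in each case by gavage. There were 5 livers per group, perfused and taken after 24 h, and the RNA came from a piece of the largest lobe. The remaining 46 samples came from untreated wild-type male rats of the same strain, with 6 samples each of B cells, natural killer (NK) cells, CD4 T cells and CD8 T cells sorted from spleen, 6 each of neutrophils and monocytes sorted from blood, 5 whole spleens and 5 samples of whole blood cells (WBC) after lysis of red cells.

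The totals per sample ran from 10484912 to 14146402 in the livers and from 3429971 to 13587693 in the other samples, the lowest being neutrophil replicate 5. The top 10 transcripts of a liver made up 24.9% to 29.6% of its total in the vehicle group, 15.0% to 18.5% after APAP and at most 23.8% after MDA, where every liver lay above the APAP livers and below the vehicle livers. The uncentred log2 ratio of the 13482 transcripts had a median of 0.61 after APAP and 0.46 after MDA, and A and M are relative to these shifts, whose cause was not tested. The table names transcripts by Ensembl identifier alone, so the functions of the members could not be given and the hepatocyte markers could not be looked up. In whole liver, fewer cells of a type and less RNA per cell cannot be told apart.

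The members had A from -6.12 to -1.45, with a median of -1.86 and quartiles of -2.16 and -1.61. Without centring, the median log2 ratio was -1.25, and in all 150 the APAP mean lay below the vehicle mean in CPM. M had a median of -0.13. In CPM, the MDA mean lay above the vehicle mean in 138 of the 150 (92%, against 85.1% of kept transcripts). The members' median uncentred log2 ratio after MDA was 0.32, under the 0.46 of all kept transcripts. The last member had A of -1.45, with means of 75.8 CPM in vehicle livers and 41.9 CPM after APAP. The first transcript left out had almost the same A, with 26.2 and 14.2 CPM, so the lower end of the list is a cap and not a gap in the values. The limit on M removed far more transcripts of equally low A than it let through. At least as low in A were 442 transcripts with M at or below -0.5 and 37 with M at or above 0.5. The member with the lowest M stood at -0.50 and the nearest transcript outside at -0.51, and at the upper limit these values were 0.49 and 0.50.

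**Figure D1:**
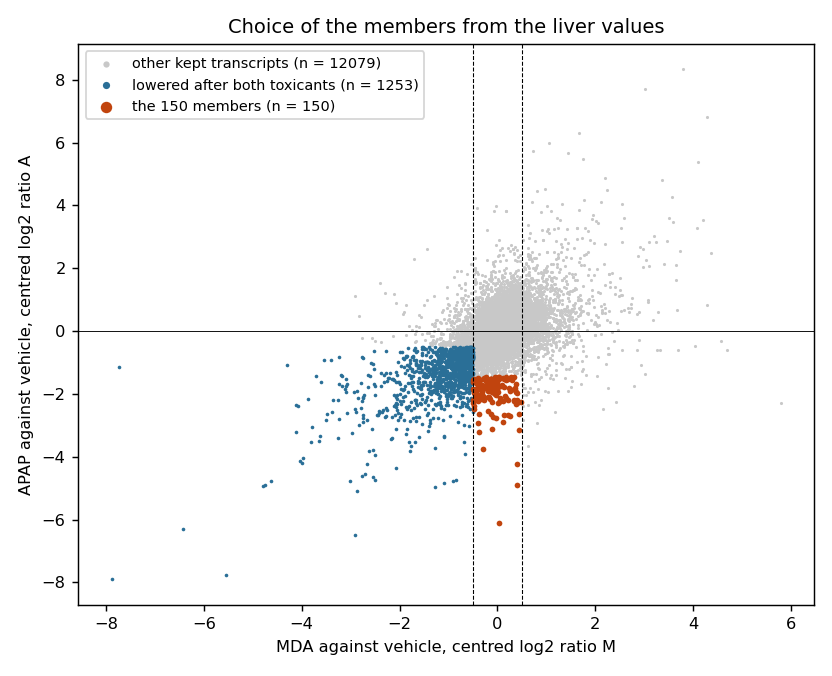
Each point is 1 of the 13482 transcripts kept in liver, with M (MDA against vehicle, centred log2 ratio) on the x axis, A (APAP against vehicle, centred log2 ratio) on the y axis and dashed lines at the limits of M. The 150 members fill the lowest part of the strip between the lines, and the 1253 transcripts with both A and M at or below -0.5 lie to their left.

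The members were more abundant in vehicle livers than most liver transcripts. Their mean level there had a median of 39.7 CPM, against 5.72 CPM over the 13482 kept transcripts and 18.7 CPM over the 1253 transcripts lowered after both toxicants. The rule favours this in part, since the vehicle mean enters A and the added 1 CPM limits how low A can be at low levels. The levels spread from 1.22 to 23710 CPM. The median of A was -1.82 in the 41 members under 10 CPM, -1.82 in the 71 members from 10 to 100 CPM and -1.93 in the 38 members at or above 100 CPM. Since the rule kept only A of -1.45 or lower, the closeness of these medians is partly set by the choice. Whether the drop depends on the level was not tested.

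Among members with a vehicle mean of at least 10 CPM and all APAP livers under all vehicle livers, ENSRNOT00000047540 had the lowest A. Its level was 117, 101, 95.6, 44.1 and 55.7 CPM in vehicle replicates 1 to 5, and 5.41, 0.331, 1.03, 1.39 and 8.41 CPM after APAP. After MDA the 5 livers held 77.3, 127, 92.5, 235 and 220 CPM. Every APAP liver was thus far below the lowest vehicle liver, whereas the MDA livers overlapped the vehicle livers and reached higher. The edgeR log2 fold change was -5.39 after APAP (SE 0.73) and 0.29 after MDA (SE 0.59). The transcript was listed at 0 in all 46 samples of immune cells, spleen and WBC.

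ENSRNOT00000028196 came next by the same rule. Vehicle livers held 192, 141, 120, 69.4 and 91.0 CPM, and APAP livers held 10.5, 2.33, 2.62, 9.04 and 20.7 CPM. The MDA livers held 102, 218, 150, 320 and 326 CPM. Again the APAP livers lay apart from the vehicle livers and the MDA livers overlapped them. The edgeR log2 fold change was -4.50 after APAP (SE 0.63) and 0.27 after MDA (SE 0.54). This transcript was also listed at 0 outside the liver. Both transcripts put the vehicle livers in the same order, highest in replicate 1 and lowest in replicate 4, and both were highest in APAP replicate 5.

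**Figure D2:**
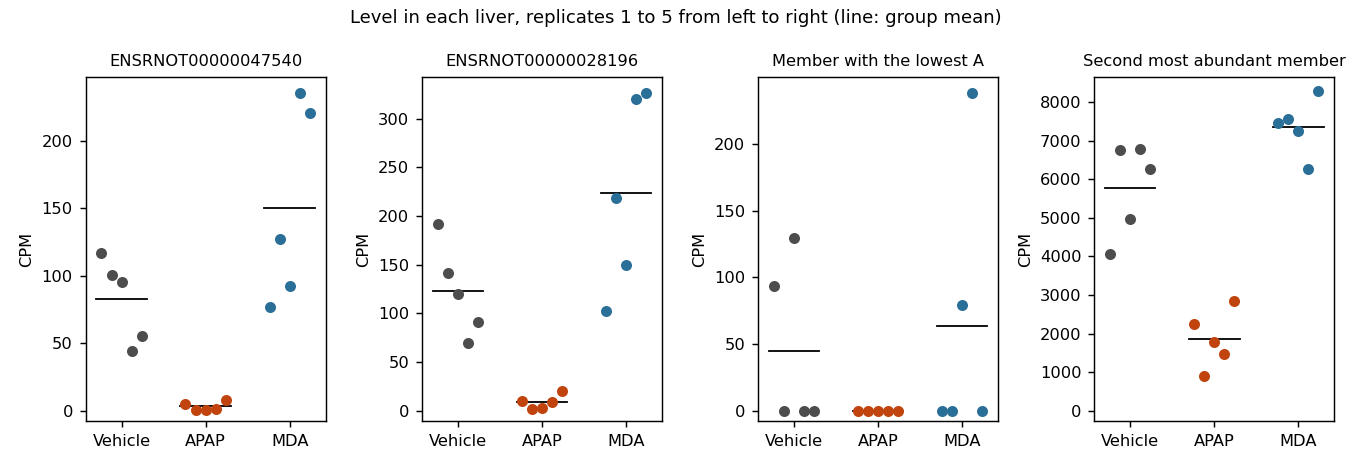
Level in CPM (y axis, each panel with its own linear scale) of 4 members in each vehicle, APAP and MDA liver, with replicates 1 to 5 from left to right and a line at the group mean. In 3 panels all APAP points lie under all vehicle points, and the member with the lowest A is above 0 in 2 vehicle livers, 2 MDA livers and no APAP liver.

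The most abundant member, ranked 96 by A, had a higher level in vehicle livers than the other 149 members had on average in sum (23710 against 22295 CPM). Its level was 22911, 24183, 24546, 23852 and 23060 CPM in vehicle livers, a mean of 23710 ± 708 (SD, n = 5). After APAP it was 10169, 9774, 11099, 10072 and 13065 CPM, a mean of 10836 ± 1341, and after MDA 27239 ± 2512 CPM. The APAP mean was 0.457 times the vehicle mean, with no overlap between the groups, and the edgeR log2 fold change was -1.85 (SE 0.15). The MDA livers, from 24274 to 29535 CPM, overlapped the vehicle livers at their lower end.

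The next most abundant member, ranked 27 by A, fell further. It held 4073, 6747, 4959, 6778 and 6261 CPM in vehicle livers and 2258, 906, 1777, 1465 and 2846 CPM after APAP. MDA livers held 6261 to 8276 CPM. Its edgeR log2 fold change after APAP was -2.32 (SE 0.25), and outside the liver no sample held more than 0.415 CPM of it. The third most abundant member held 1163 to 1312 CPM in vehicle livers, 468 to 634 CPM after APAP and 1226 to 2172 CPM after MDA, again with APAP livers apart from both other groups.

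Summed over the 150 members, vehicle livers held 42977, 48569, 45559, 46975 and 45944 CPM. APAP livers held 17876, 15674, 19286, 17570 and 24225 CPM, and MDA livers 57110, 60906, 52601, 51230 and 58202 CPM. The group means were 46005 ± 2055 for vehicle, 18926 ± 3230 for APAP and 56010 ± 4014 for MDA (SD, n = 5). The sum after APAP was thus 0.411 times that of the vehicle livers, and the sum after MDA 1.22 times, with no overlap among the groups. Without the most abundant member, the ratio after APAP was 0.363. The scaling matters for the size of this drop: with TMM normalization, a scaling in which most transcripts are taken as unchanged, the ratio after APAP was 0.251. It matters for the higher sum after MDA too, since the median uncentred log2 ratio of all kept transcripts was 0.46 there. By edgeR with TMM, the members had a median log2 fold change of -0.21 after MDA, and 0 were called higher.

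**Figure D3:**
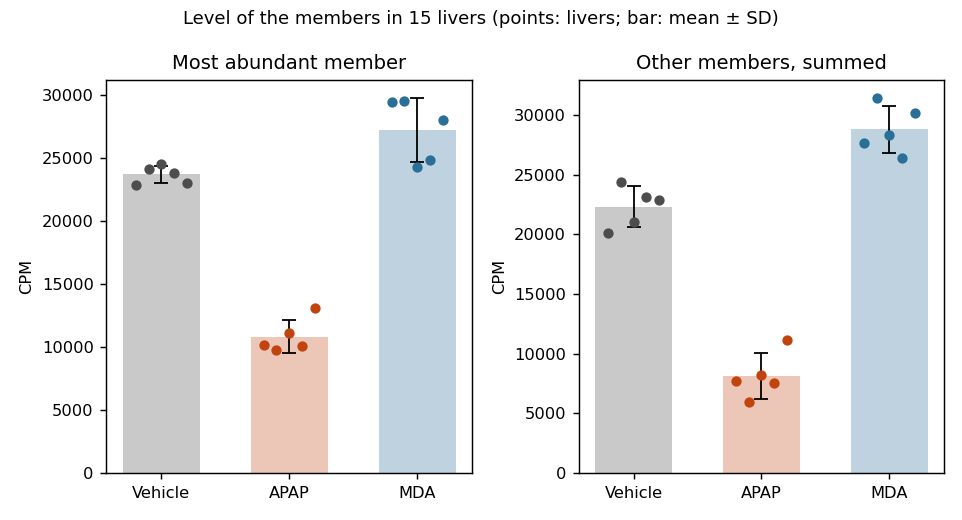
Level in CPM (linear y axis from 0) of the most abundant member and of the other 149 members summed, in vehicle, APAP and MDA livers. Points are livers, bars are means and error bars are SD (n = 5), and in both panels all APAP livers lie under all vehicle livers, with APAP replicate 5 the highest of its group.

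Member by member, all 5 APAP livers lay below all 5 vehicle livers in 96 of 150 members, where 4.45% of the 13482 kept transcripts did so. In 93 members the APAP livers lay below all 10 other livers (2.42% of kept transcripts). In the other 54 members (36%, against 54.9% of kept transcripts) the APAP and vehicle ranges overlapped. By edgeR's quasi-likelihood test, 139 of the 150 were lower after APAP at an adjusted p-value under 0.05, where 20.5% of all transcripts tested were lower, and 0 were higher, where 20.3% were. The median log2 fold change was -2.12 over the members and 0.05 over all transcripts. Since the rule selected on this contrast, these counts describe the list and test nothing.

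The drop was not equal in the 5 APAP livers. The median centred log2 ratio of the members to the vehicle mean was -1.96, -2.16, -2.01, -1.83 and -1.49 in APAP replicates 1 to 5. Replicate 5 kept the most of these transcripts, and it was the highest of the 5 APAP livers in 89 members (59.3%). Over all kept transcripts it was the highest in 16.9%. Over the 1253 transcripts lowered after both toxicants it was the highest in 41.8%, and there too it had the smallest median drop, -0.98 against -1.15 to -1.39 in the other 4. Replicate 2 was the lowest of the 5 in 53 members (35.3%, against 17.1% of kept transcripts and 30.5% of those lowered after both). Transcripts listed at 0 in any APAP liver were not counted as lowest in any replicate. They were 26 among the members (17.3%, against 4.54% of kept transcripts). In the vehicle livers the same median lay between -0.14 and 0.06, and in the MDA livers between -0.25 and -0.07.

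**Figure D4:**
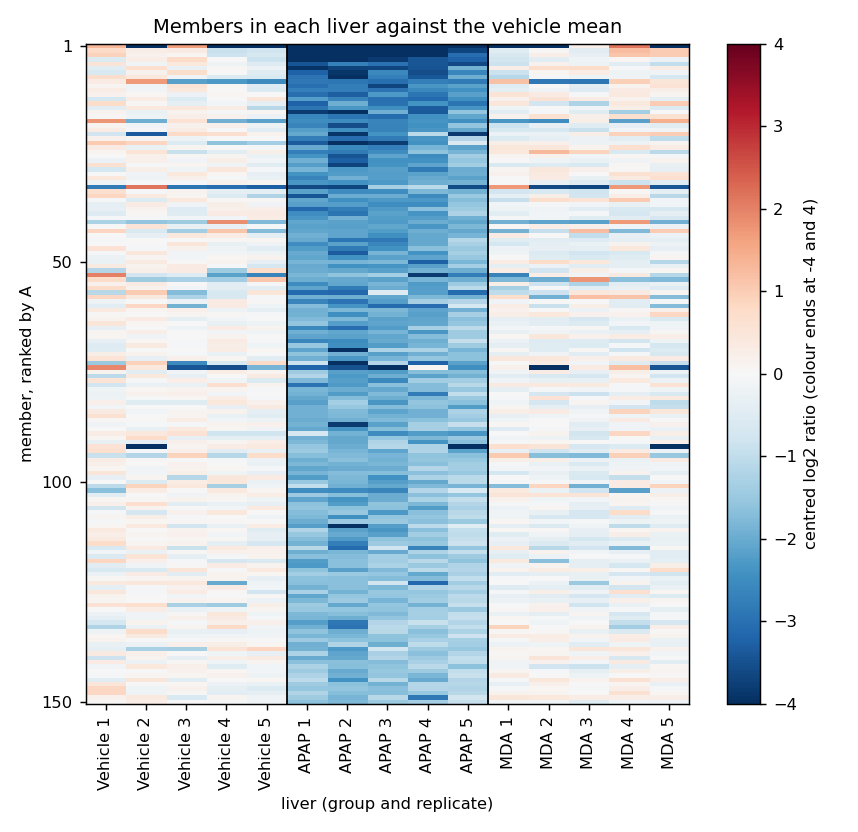
Centred log2 ratio of each member (rows, ranked 1 to 150 by A) to its vehicle mean in each of the 15 livers (columns), with colours ending at -4 and 4. The APAP columns are below 0 in nearly all rows and palest in replicate 5, and rows with dark cells in the vehicle or MDA columns are members listed at or near 0 in some of those livers.

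The spread between replicates followed the same pattern. The coefficient of variation had a median of 25.4% over vehicle livers in the members and 28.0% in all kept transcripts. Over APAP livers it was 36.6% in the 141 members above 0 there, against 24.4%, and over MDA livers 22.2% against 21.3%. By this measure the members were about as even as other transcripts in vehicle and MDA livers and less even after APAP. The comparison was not matched for level, and the coefficient divides by the mean, which the rule chose to be low after APAP.

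A small share of the members was uneven among the vehicle livers. In 15 members (10%, against 7.05% of kept transcripts) at least 1 vehicle liver was listed at 0. In 11 (7.33%, against 3.45% of kept transcripts) a single vehicle liver held over 50% of the vehicle sum. The member with the lowest A was of this kind. It held 93.2, 0, 129.5, 0 and 0 CPM in vehicle livers, 0 in all APAP livers, and 0, 0, 78.9, 238 and 0 CPM after MDA. Its rank thus rests on vehicle replicates 1 and 3. In all, 9 members (6%, against 0.2% of kept transcripts) were listed at 0 in every APAP liver, which the rule favours. Each of these 9 was also at 0 in at least 1 vehicle liver. Their vehicle means ran from 1.22 to 44.5 CPM, and 8 of the 9 were under 10 CPM. The 11 members not called lower after APAP had a median vehicle mean of 2.80 CPM, and 8 of them were at 0 in at least 1 vehicle liver.

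After MDA, the rule fixed a small difference in the mean, and most members overlapped the vehicle livers. The ranges overlapped in 128 of 150 members (85.3%, against 68.4% of kept transcripts). All MDA livers lay above all vehicle livers in 22 members (14.7%, against 28.8%) and below them in 0 (against 2.81%). In either direction, the groups did not overlap in 31.6% of kept transcripts. By edgeR, 6 members were lower and 0 higher after MDA, where 22% of all transcripts tested were called in either direction and 11.3% lower, but with library size alone in place of TMM the 27 called members were all higher, in a fit that called 48.2% of all transcripts. The 6 had log2 fold changes from -0.58 to -0.49 and vehicle means from 17.9 to 216 CPM. They include the member ranked 32 by A, a moderately abundant transcript with 171 ± 36.5 CPM in vehicle livers, 55.9 ± 7.62 CPM after APAP and 177 ± 43.1 CPM after MDA (SD, n = 5). For this member the CPM means of MDA and vehicle livers are close, and the lower call, with a log2 fold change of -0.49, is relative to the shift of all transcripts that TMM takes out.

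The samples other than liver played no role in the choice. In these, a transcript was counted as found in a sample type when its mean over replicates was at least 1 CPM. Between 46.7% (neutrophils) and 52.7% (NK cells) of the members were found in each of the 8 types, whereas 80.6% to 84.2% of the kept transcripts were. Of the 150 members, 86 (57.3%, against 87.2% of kept transcripts) were found in at least 1 type. In all 8 types were 62 (41.3%, against 77.8%) and in 1 to 7 were 24 (16%, against 9.37%). The remaining 64 (42.7%) were found in none, against 12.8% of kept transcripts. In all 46 samples 17 (11.3%, against 2.82%) were listed at 0. The vehicle liver mean was at least 10 times that of every other type in 70 members (46.7%, against 11.3% of kept transcripts). In 29 members (19.3%, against 74.4%) some other type exceeded the vehicle livers. The members' sum was 1441 to 3311 CPM in the 46 other samples, where every vehicle liver held 42977 CPM or more. The vehicle mean enters A, so the rule itself favours these comparisons with vehicle livers in part. That mean had a median of 39.7 CPM in the members and 5.72 CPM in the kept transcripts.

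The transcripts lowered after both toxicants had close shares outside the liver for most of these counts. Of these 1253, 57.6% were found in at least 1 of the 8 types, 42.4% in none and 42.8% in all 8, and in 46.8% the vehicle liver mean was at least 10 times every other type. Some other type exceeded the vehicle livers in 27.7% of them, against 19.3% of the members. The difference between these lists and the members was not tested.

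**Figure D5:**
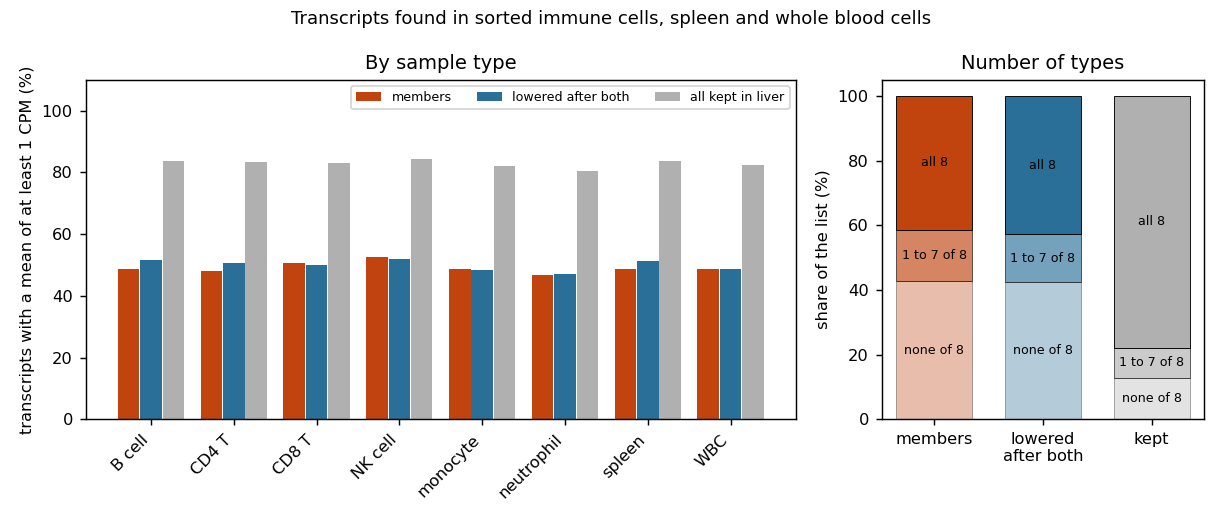
Left, share in percent of the 150 members, of the 1253 transcripts lowered after both toxicants and of the 13482 kept transcripts that averaged 1 CPM or more in each of the 8 sample types. Right, share of each list found in none, in 1 to 7 or in all 8 types, where members and transcripts lowered after both are alike, with 42.7% and 42.4% in none, and the kept transcripts differ from them, with 12.8%.

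Members found in all 8 types and members found in none had close values in liver. The rule chose both on these liver values, with A at -1.45 or lower, so this closeness is partly set by the choice. The 62 found in all 8 had a median vehicle level of 49.4 CPM and a median A of -1.84, and in 43 of them the APAP livers lay below all vehicle livers. The 64 found in none had a median level of 45.6 CPM and a median A of -1.86, with the APAP livers below all vehicle livers in 39. The 24 found in 1 to 7 types were less abundant in liver, at a median of 10.0 CPM, with a median A of -1.99. Among the 86 members found outside the liver, monocytes held the highest mean in 23 (26.7%, against 25.8% of kept transcripts found outside). WBC held it in 0, against 0.98% of those kept transcripts.

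The most abundant member was found in every type, at levels far below those in liver. Its mean was 850 ± 190 CPM in neutrophils, 524 ± 55.1 CPM in monocytes (SD, n = 6) and 370 ± 112 CPM in WBC, and it was 149 ± 29.1 CPM in spleen (SD, n = 5). In the 4 lymphocyte types it was between 51.2 and 81.1 CPM. The levels in neutrophils (601.8 to 1127 CPM) and monocytes (440 to 583 CPM) did not overlap, and the log2 difference was 1.09 (SE 0.35, edgeR adjusted p = 0.0103). The member with the lowest A had another pattern outside the liver, being well above its liver level in B cells, at 284 to 567 CPM in all 6 samples. Monocytes held 155 to 474 CPM of it in all 6 samples, above every vehicle liver but not above every MDA liver. In the remaining types it jumped between samples, for example from 0 to 575 CPM in NK cells and from 0 to 586 CPM in spleen. Neither tested comparison of this member passed the threshold.

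Spleen and WBC of untreated rats were compared in a fit of their own. Of the 150 members, 71 reached the minimum mean of 1 CPM there, and 34 differed at an adjusted p-value under 0.05, where 46.6% of all 13885 transcripts tested differed, and 47.2% of those also kept in liver. In spleen, 14 were higher (22.7% of all tested, 22.6% of those kept in liver) and 20 lower (23.9% and 24.6%). This split turned to 23 higher and 17 lower both with limma on log2 CPM and with library size alone. Those fits called 51% and 49.9% of all transcripts in either direction. The median log2 difference of the members, spleen minus WBC, was 0.07, and that of all transcripts 0.02. Both the count and the median thus stood near the background.

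Among the called members whose groups did not overlap, the largest difference towards spleen was that of ENSRNOT00000023926. Spleens held 46.5, 43.8, 40.2, 36.6 and 30.0 CPM and WBC samples held 7.37, 9.96, 11.6, 10.7 and 18.1 CPM. The groups did not overlap, and the log2 difference was 1.61 (SE 0.19, edgeR adjusted p = 8.3e-05). In liver, where it fell after APAP, it held 6.51 to 12.4 CPM in vehicle livers, 2.39 to 5.11 CPM after APAP and 7.86 to 14.5 CPM after MDA. Blood monocytes held 27.7 ± 3.61 CPM of it and neutrophils 9.19 ± 2.54 CPM (SD, n = 6), without overlap, a log2 difference of -1.23 for neutrophils minus monocytes (SE 0.37, edgeR adjusted p = 0.0074).

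By the same choice ENSRNOT00000027220 followed, with 14.5, 13.8, 13.9, 13.3 and 11.3 CPM in spleen and 5.14, 6.31, 4.61, 5.91 and 7.95 CPM in WBC. The groups again did not overlap, and the log2 difference was 0.99 (SE 0.13, edgeR adjusted p = 1.8e-04). Its levels were even within each type, at 12.9 ± 1.42 CPM in B cells, 7.64 ± 0.888 CPM in monocytes and 3.87 ± 0.785 CPM in neutrophils (SD, n = 6). In liver it was more abundant, at 64.7 to 85.8 CPM in vehicle livers, 27.1 to 37.2 CPM after APAP and 87.1 to 114 CPM after MDA.

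In the other direction, the member ranked 128 by A and the member ranked 32 differed most among the called members without overlap. The member ranked 128 held 0.919 to 2.11 CPM in spleen and 2.76 to 5.01 CPM in WBC, a log2 difference of -1.56 (SE 0.24, edgeR adjusted p = 3.7e-04). Its highest level in any type was in neutrophils, at 6.22 to 21.5 CPM against 1.06 to 4.26 CPM in monocytes (log2 difference 2.83, SE 0.73, edgeR adjusted p = 0.0018). In vehicle livers it was low, at 0 to 3.38 CPM, and it was among the members not called lower after APAP. The member ranked 32 held 5.02 to 6.29 CPM in spleen and 10.3 to 18.3 CPM in WBC (log2 difference -1.54, SE 0.13, edgeR adjusted p = 1.2e-05). It was highest among sorted cells in monocytes, at 52.2 to 73.8 CPM, against 10.3 to 22.5 CPM in neutrophils (log2 difference -1.74, SE 0.28, edgeR adjusted p = 5.7e-06) and at most 4.20 CPM in any lymphocyte sample.

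Neutrophils and monocytes both came from blood and were compared within 1 fit of the 36 sorted samples. Of the 75 members that passed the filter there, 30 differed at an adjusted p-value under 0.05, against 43.4% of the 14172 transcripts tested and 46.4% of those also kept in liver. In neutrophils 12 were higher (23.3% of all tested, 24% of those kept in liver) and 18 lower (20.1% and 22.4%). The split moved to 4 higher and 33 lower with limma on log2 CPM and to 5 higher and 30 lower with library size alone. Those fits called 56.6% and 55.5% of all transcripts in either direction. Over any of the 6 sorted types, 61 of the 75 differed, against 83.4% of all transcripts tested and 84.8% of those kept in liver. The lymphocytes came from spleen and the myeloid cells from blood, so cell type and organ cannot be told apart in this last count. The members that are found in immune cells thus varied among them about as often as other transcripts did.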

How the data were processed

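Paired-end libraries (NEBNext directional) were trimmed with PRINSEQ++ and quantified by the authors with Salmon 1.6.0 on the Ensembl cDNA of Rnor_6.0, then imported with tximport. The methods name TPM as the unit, but the deposited values add up to different totals per sample, are not whole, and were used as estimated counts (expected counts). Among 2659 transcripts above 0 in 3 to 10 samples, the lowest value had a median of 1.31 and 10th and 90th percentiles of 0.352 and 7.88, and the second lowest was a median of 1.08 times it, so 1 read was not worth 1 unit and transcript length may have been divided out. Depth in reads is therefore unknown, no floor was computed, and counts of 0 are given as listed. Levels of different transcripts are compared on the CPM scale under this limit.

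Values rounded to whole numbers were tested with edgeR 4.0.16 (quasi-likelihood, TMM, R 4.3.3) over transcripts averaging 1 CPM or more. There were 3 fits, 1 for all 15 livers, 1 for spleen and WBC and 1 for the 36 sorted samples. P-values were adjusted over all transcripts tested (threshold 0.05), and the SE is the size of the log2 fold change divided by the square root of its F statistic. Nothing states that each sample of immune cells came from its own rat, so their p-values cover the spread between these samples. No 2 samples were identical (0 pairs). DESeq2 1.42.0, limma 3.58.1, other scalings and filters, a replicate block and leaving out each replicate were alternatives. The summed level, the count of members without overlap and the detection limits for the transcripts lowered after both toxicants were added after seeing the data. The procedures were tested on simulated data.

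Of 31196 identifiers, 0 matched the 47357 genes of GRCr8 used for names, so planned gene lists and cell type markers could not be followed and no sequences are shown. At most 2 identifiers that fell after APAP and 2 that were higher in spleen are printed. The former have the lowest A among members with a vehicle mean of at least 10 CPM and no overlap with the APAP livers. The latter, and the unnamed members ranked 128 and 32, have the largest differences between spleen and WBC among called members with no overlap. The most abundant members and the member with the lowest A were singled out after their values were seen. The members, lists and tests were chosen with earlier results of these data known.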

Additional observations from a re-analysis of the deposited data

How the results depend on the processing

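The count of members called lower after APAP stayed between 128 and 140 under 7 alternatives and between 134 and 139 without each liver, from 139. The share of all transcripts called in either direction moved more. It was 40.8% in the main fit, and from 24.5% (no filter) to 64.9% (limma) under the alternatives. Without each liver this share was 36.8% to 42%. The 4 identifiers printed kept their direction and their call under every alternative run. The count of members called after MDA, 6 and all lower, was less stable. It was 12 with DESeq2 (24.6% of all transcripts called) and 12 with only the groups compared (22.8%). It was 3 without a filter (12.3%) and 3 with the replicate block (19.4%). It turned to 33 higher with limma on log2 CPM and to 27 higher without TMM, in fits that called 49.8% and 48.2% of all transcripts, so both counts lie under that background. Without single livers it lay between 2 and 10: 10 without APAP replicate 5, 3 without vehicle replicate 3, 3 without MDA replicate 2 and 2 without MDA replicate 3. The fits without single livers called 18.1% to 22.8% of all transcripts after MDA. Between spleen and WBC, the 34 called members became 40 with limma and 40 without TMM, both with most of them higher in spleen. Those fits called 51% and 49.9% of all transcripts, and the cause of the change was not tested.

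Membership moved with the rule. Of the 150 members, 98 stayed with a filter of 10 CPM, 95 without a filter and 74 with M limited to 0.25, and 100 to 119 under the other 4 alternatives. Without 1 liver, 122 to 140 stayed. At a detection limit of 10 CPM, 54 members and 433 of the transcripts lowered after both toxicants were found outside the liver, in place of 86 and 722. The summed ratio after APAP was 0.251 with TMM scaling and 0.383 to 0.429 without single livers. The members without overlap, 96, were 121 with TMM scaling (14.5% of kept transcripts) and 96 to 115 without single livers (4.6% to 5.6%). The 115 came without vehicle replicate 1.

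Replicate numbers gave little sign of pairing in the livers or in the spleen and WBC samples. The labels do not say whether same-numbered samples go together, and the low correlations below cannot exclude it. The correlation of the deviations of same-numbered livers ran from -0.291 to 0.170 over 15 pairs, and in 3 of 15 the liver of the same number was the best match. For spleen and WBC, 0 of 5 pairs were over 0.1. Among the sorted samples, 24 of 90 same-numbered pairs were over 0.1, up to 0.583, with a median of 0.005, and in 35 of 90 the sample of the same number was the best match. This hints that some same-numbered sorted samples go together, though the labels do not say so. With the replicate block, 134 members were called lower after APAP, 34 differed between spleen and WBC, 32 between neutrophils and monocytes and 61 among the 6 sorted types. In the same order, 38.3%, 41.5%, 45% and 84.2% of all transcripts were called in either direction. Low levels and zeros in single livers limit the members under 10 CPM most.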
